A study of Mus musculus with 78 samples.

Results

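The genes described here are 31 genes of cholesterol synthesis and sterol regulation, taken by name among the protein-coding genes of a table of 54532 genes from mouse cerebral arteries. They comprise 8 enzymes of the mevalonate and isoprenoid steps, 11 enzymes that make squalene or carry it to cholesterol, 5 genes of sterol sensing, 2 liver X receptors and 5 genes of sterol transport, efflux, uptake control and storage. The list does not hold every step of the pathway.

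RNA sequencing was done on 78 libraries of cerebral arteries from male wild-type C57Bl6 mice. For 3 months the diet was either ad libitum (AL), with food always at hand, or intermittent fasting (IF). Each mouse then had either a sham operation or BCAS, a stenosis placed on both carotid arteries so that the brain receives less blood over a long time. Arteries were collected on day 1, 7, 14, 21 or 30 after the operation. There were 20 groups: 18 of 4 libraries, and 2 of 3 libraries, namely BCAS AL of day 1 and the day 7 group of sham IF. Over the 5 days there were 20 sham AL, 19 sham IF, 19 BCAS AL and 20 BCAS IF libraries. Day 7 rests on the group labels alone, since the treatment text lists the other 4 days. How the mice were fasted, their age and the hour at which arteries were taken are not given in the sources used here. The labels do not say whether each library is 1 animal, so the p-values speak of the spread between libraries, which may be technical.

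Cholesterol is built from acetyl units through mevalonate, farnesyl units, squalene and a chain of sterol intermediates. When sterols are scarce in the endoplasmic reticulum, SCAP carries the membrane-bound factor SREBP-2, the product of Srebf2, to the Golgi, where it is cut and freed to switch on the genes of this pathway, while the INSIG proteins hold it back when sterols are plentiful. Liver X receptors respond to oxysterols and drive efflux genes such as Abca1 and Abcg1, and Mylip, which marks lipoprotein receptors for degradation. Synthesis is costly, and in the liver these genes follow feeding state and the time of day.

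The stretches just upstream of 4 members that were lower with fasting are shown because SREBP-2 is known to act at short sites near start sites, usually with the factor NF-Y, which binds CCAAT. The sequences are from RefSeq (GRCm38.p6), 5′ to 3′ on the gene's strand, and end before the first base of any gene in the deposited table. Capitals mark matches to TCACNCCAC, a sterol regulatory element, or to CCAAT, on either strand (CCAAT on the other strand reads ATTGG).

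Hmgcs1, chr13:119690201-119690350, + strand: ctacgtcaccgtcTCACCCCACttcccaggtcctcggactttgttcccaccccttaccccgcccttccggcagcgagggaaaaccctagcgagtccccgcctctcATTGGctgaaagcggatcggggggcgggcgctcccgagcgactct

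Srebf2, chr15:82147031-82147180, + strand: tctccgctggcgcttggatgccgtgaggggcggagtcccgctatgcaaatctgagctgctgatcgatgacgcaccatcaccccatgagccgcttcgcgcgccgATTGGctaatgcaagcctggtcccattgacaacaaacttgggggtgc

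Hsd17b7, chr1:169969242-169969391, - strand: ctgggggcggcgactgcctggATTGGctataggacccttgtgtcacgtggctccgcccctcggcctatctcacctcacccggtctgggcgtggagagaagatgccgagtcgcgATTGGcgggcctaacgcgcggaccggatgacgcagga

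Cyp51, chr5:4104747-4104896, - strand: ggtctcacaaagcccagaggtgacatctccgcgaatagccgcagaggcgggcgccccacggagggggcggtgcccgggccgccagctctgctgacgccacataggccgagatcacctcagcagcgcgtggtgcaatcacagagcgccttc

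The Hmgcs1 stretch held a TCACNCCAC match and a CCAAT match, the Hsd17b7 stretch 2 CCAAT matches and the Srebf2 stretch 1, while the Cyp51 stretch shown held neither. A CCAAT match of Cyp51 lay at base -29 from its start, outside that stretch. In the whole RefSeq window, 250 bases before to 50 bases after each start, 26 of the 31 members could be searched. Hmgcs1 was the only one of the 26 with TCACNCCAC, which 1.44% of all 27025 genes in that table held. A gene with several windows was counted when any of them held the match. CCAAT was in 21 of the 26 members (80.8%), against 42.3% of the protein-coding genes tested here and 41.1% of all genes. GGGCGG, a GC box, was in 22 of 26 (84.6%), against 68.5% of the genes tested. CACGTG, an E-box that clock proteins and SREBP-1 can bind, was in 6 of 26 (23.1%), against 11.6% of the genes tested. Among the 9 searched members that were lower with fasting after sham surgery, 8 held CCAAT (88.9%), and among the other 17 members 13 did (76.5%). GGGCGG was in 7 of the 9 (77.8%) and 15 of the 17 (88.2%), CACGTG in 1 (11.1%) and 5 (29.4%), and TCACNCCAC in 1 (11.1%) and 0. These are matches of letters, not sites shown to be bound. Only the exact pattern TCACNCCAC was searched, so a member with no match may still hold a variant of that element.

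Levels were deposited as FPKM, fragments per kilobase of gene scaled to depth, which can be compared between genes as far as the deposited gene lengths hold. Those lengths can differ from the length of 1 transcript: Lss has 10787 bases in the table and 4667 in the transcript used for the search of copies, and Abcg1 4066 and 5832. The order given here is that of the deposited values. The highest member was the liver X receptor Nr1h2, at a mean of 41.8 ± 2.80 FPKM (SD, n = 78 libraries), followed by phosphomevalonate kinase (Pmvk, 28.9 ± 3.44), the sterol isomerase Ebp (24.3 ± 2.41) and Insig2 (23.8 ± 1.60). Srebf2 (21.2 ± 2.38), Hmgcs1 (19.7 ± 3.18) and Srebf1 (19.4 ± 2.24) came next, and their spreads overlapped those of Ebp and Insig2. At the low end were Abcg1 (1.88 ± 0.384), Hsd17b7 (1.87 ± 0.370) and lanosterol synthase (Lss, 1.80 ± 0.211), whose spreads overlapped, then isopentenyl diphosphate isomerase (Idi1, 1.21 ± 0.625) and farnesyl diphosphate synthase (Fdps, 0.155 ± 0.0805). Of the 31 members, 30 had at least 1 FPKM in at least 3 libraries and were tested.

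Fdps did not pass that filter: it lay between 0 and 0.458 FPKM in all libraries, although its product supplies both the sterol and the isoprenoid branches. In the table it is overlapped on the same strand over 7512 bases by Gm43738, and the pseudogene Gm3571, 98.87% identical to its transcript over 1062 bases, was at 3.88 FPKM. How the authors' counting shared fragments between such copies was not given in the sources used here, so the Fdps values are uncertain. Uncertain for the same reason are Idi1 (3 pseudogenes), Acat2 (Acat3, 97.7% identical), Ggps1 and Fdft1 (1 pseudogene each) and Tm7sf2, which Vps51 overlaps on the same strand. Whether counting used the strand was not given either, and Fdft1 shares 774 bases with Ctsb (116.9 FPKM) on the opposite strand. Cyp51 shares 166 bases with Akap9 (1.753 FPKM) there, while the genes opposite to Mvd and Hmgcs1, Gm20388 and Gm48342, were at 0 and 0.0187 FPKM.

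The arteries were the tissue named. Mean levels of smooth muscle markers ran from 32.1 FPKM for Tagln to 5006 FPKM for Acta2, with Myh11 at 420 FPKM. The endothelial gene Cldn5 averaged 474 FPKM, and the other endothelial markers 28.7 (Tie1) to 64.2 FPKM (Pecam1). Fibroblast markers were present too, at a sum of 427.7 ± 56.6 FPKM (SD, 78 libraries). Depth was 14601572 to 25944175 fragments a library. In bulk arteries, fewer cells of a type and less RNA per cell cannot be told apart. Pituitary markers summed to 162 ± 318 FPKM in sham AL and 605 ± 1360 in sham IF (SD), and to 206 ± 264 in BCAS AL and 190.5 ± 228 in BCAS IF. In the same order, red blood cell markers summed to 217.5 ± 218, 115 ± 93.3, 397 ± 467 and 308 ± 680 FPKM. Endothelial markers summed to 653 ± 78, 704 ± 87.2, 762 ± 95.3 and 754 ± 86.7 FPKM. Their part in the diet differences was not tested. Markers of brain tissue were detected in every library. The 9 oligodendrocyte markers summed to 79.1 to 204 FPKM, but Cldn11 alone averaged 92.5 FPKM of a mean sum of 118.2, while Mog, Mag, Ermn and Ugt8a averaged between 0.280 and 1.07 FPKM and Opalin was at 0 in 21 libraries. A brain tissue score, the mean z-score of oligodendrocyte, astrocyte and neuron markers, was 0.136 ± 0.745 in sham AL, 0.0995 ± 0.721 in sham IF, -0.153 ± 0.515 in BCAS AL and -0.0852 ± 0.398 in BCAS IF (SD). Within groups, 0 of 30 members varied with that score, against 1.68% of all genes tested (limma, with 3 members at an unadjusted p under 0.05, limma-voom not run). In 3 libraries, sham AL day 7 replicates 2 and 4 and BCAS AL day 1 replicate 2, genes under 300 bases took 0.279% to 0.322% of fragments, against a median of 0.0626% over all libraries.

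The first question was whether fasting changed the pathway in arteries of sham-operated mice. Fasted mice had lower levels of 12 of the 30 tested members, and none was higher. The largest difference was in Cyp51, the sterol 14-demethylase, followed on the log scale by Idi1, Mvd, Hmgcs1, Msmo1 and Sqle. Lower genes included 4 of 7 tested mevalonate enzymes, 5 of 11 squalene and sterol enzymes, and Srebf2 itself. The comparison took the mean over the 5 days of the difference in log2(FPKM + 1), in 1 limma fit of all 20 groups, with Benjamini-Hochberg adjustment over 15707 genes and a threshold of 0.05. Of all those genes, 23.7% passed, and 11.9% passed as lower, with 1850 genes higher and 1869 lower. The members were chosen with earlier results of these data known, so their count beside these shares is a description, not a test of the pathway. The median difference over the members was -0.057 and over all genes 0.0064.

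Cyp51 ranged from 8.28 to 17.2 FPKM in the 20 sham AL libraries, with a median of 12.1, and from 4.98 to 11.2 FPKM in the 19 sham IF libraries, with a median of 8.43. The ranges overlapped, but all 19 fasted libraries lay below the AL median. The difference was -0.50 ± 0.058 (SE) on the log2(FPKM + 1) scale, a 1.41-fold lower FPKM + 1 with fasting, with an adjusted p of 8.58e-10 by limma. Cyp51 lies on chromosome 5, 4081145 to 4104746, on the - strand. By day, the 4 sham AL libraries had 8.28, 9.79, 8.58 and 8.46 FPKM on day 1, and the 4 sham IF libraries 6.99, 4.98, 5.58 and 8.43 FPKM, so the groups overlapped by a single library. On day 30 the sham AL libraries had 15.9, 13.2, 12.1 and 11.2 FPKM and the sham IF libraries 8.12, 8.87, 8.74 and 7.09 FPKM, with no overlap, as for 6.7% of all genes in that direction on that day.

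Hmgcs1, the cytosolic synthase that feeds mevalonate production, ranged from 16.5 to 28.3 FPKM in sham AL (median 22.6) and from 13.0 to 21.9 FPKM in sham IF (median 17.8). All 19 fasted libraries lay below the AL median, although the ranges overlapped. Its difference was -0.30 ± 0.042, or 1.23-fold lower (adjusted p = 1.14e-07, limma). Hmgcs1 (chromosome 13, 119690379 to 119708260, + strand) was on day 30 at 27.5, 23.9, 21.4 and 22.4 FPKM in sham AL and 17.0, 18.1, 17.8 and 17.5 FPKM in sham IF, again with no overlap.

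Srebf2 was lower as well. It ranged from 21.4 to 28.5 FPKM in sham AL (median 23.4) and from 16.7 to 23.2 FPKM in sham IF (median 20.7), and differed by -0.21 ± 0.028 (1.16-fold lower, adjusted p = 1.77e-08, limma). The lowest AL library stood above the fasted median, and the highest fasted library below the AL median. Srebf1, which encodes the related factor for fatty acid genes, differed by -0.021 ± 0.043, with medians of 19.0 and 19.2 FPKM.

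Among the other mevalonate enzymes, Mvd, the mevalonate diphosphate decarboxylase, had medians of 5.33 FPKM in sham AL and 4.24 FPKM in sham IF and differed by -0.31 ± 0.061 (adjusted p = 0.000113, limma). Idi1, which isomerises the isoprene unit, had medians of 1.38 and 0.906 FPKM and differed by -0.31 ± 0.098 (adjusted p = 0.016), a call that ended without day 7 (adjusted p = 0.0922) and with limma-voom. Ggps1, which makes the geranylgeranyl group for protein prenylation, differed by -0.13 ± 0.033 (adjusted p = 0.00244). Acat2, Mvk and Pmvk differed by -0.021, -0.020 and -0.010 and did not pass.

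Among the squalene and sterol enzymes, Sqle, the squalene epoxidase that is a rate-limiting step, had medians of 7.67 FPKM in sham AL and 6.18 FPKM in sham IF, with ranges of 5.97 to 9.81 and 4.31 to 7.40. Its difference was -0.28 ± 0.049 (adjusted p = 1.46e-05, limma). Msmo1, the sterol 4-methyl oxidase, had medians of 10.6 and 8.59 FPKM and differed by -0.28 ± 0.046 (adjusted p = 4.2e-06). Hsd17b7, a sterol ketoreductase, had medians of 2.09 and 1.63 FPKM and differed by -0.22 ± 0.049 (adjusted p = 0.000535). Fdft1, the squalene synthase, differed by -0.12 ± 0.045 (adjusted p = 0.0474), a call that ended when any of 25 of the 39 libraries was left out, with adjusted p between 0.0225 and 0.098. The other 6 of the 11, Lss, Tm7sf2, Nsdhl, Ebp, Sc5d and Dhcr7, lay between -0.067 and 0.036 and did not pass.

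Among the genes outside the enzymes, Stard4, a carrier that moves cholesterol between membranes, had medians of 4.78 FPKM in sham AL and 4.07 FPKM in sham IF and differed by -0.21 ± 0.039 (adjusted p = 3.94e-05, limma). Nr1h3, the inducible liver X receptor, had medians of 12.3 and 10.7 FPKM and differed by -0.15 ± 0.048 (adjusted p = 0.0134), a call that ended without day 1 (adjusted p = 0.0912). Insig1, itself a classic SREBP-2 target, had medians of 14.9 and 12.9 FPKM and differed by -0.18 ± 0.072, just outside the threshold (adjusted p = 0.0531). Its AL range, 10.5 to 25.4 FPKM, and its IF range, 8.77 to 18.8 FPKM, overlapped widely.

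The other regulators kept close levels on both diets after sham. Insig2, the second brake on SREBP transport, ranged from 21.6 to 26.9 FPKM in AL (median 23.9) and from 20.9 to 27.8 FPKM in IF (median 23.8). Scap, the escort of SREBP, had medians of 9.23 and 9.25 FPKM. Nr1h2 had medians of 42.4 and 42.1 FPKM, and the exporter Abca1 3.55 and 3.73 FPKM.

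These genes, with Abcg1 and the cholesterol-esterifying enzyme Soat1, differed by between -0.028 and 0.042 on the log2(FPKM + 1) scale. Mylip, the receptor-degrading ligase, differed by 0.11 ± 0.053 (adjusted p = 0.107, limma), so it did not pass.

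**Figure D1:**
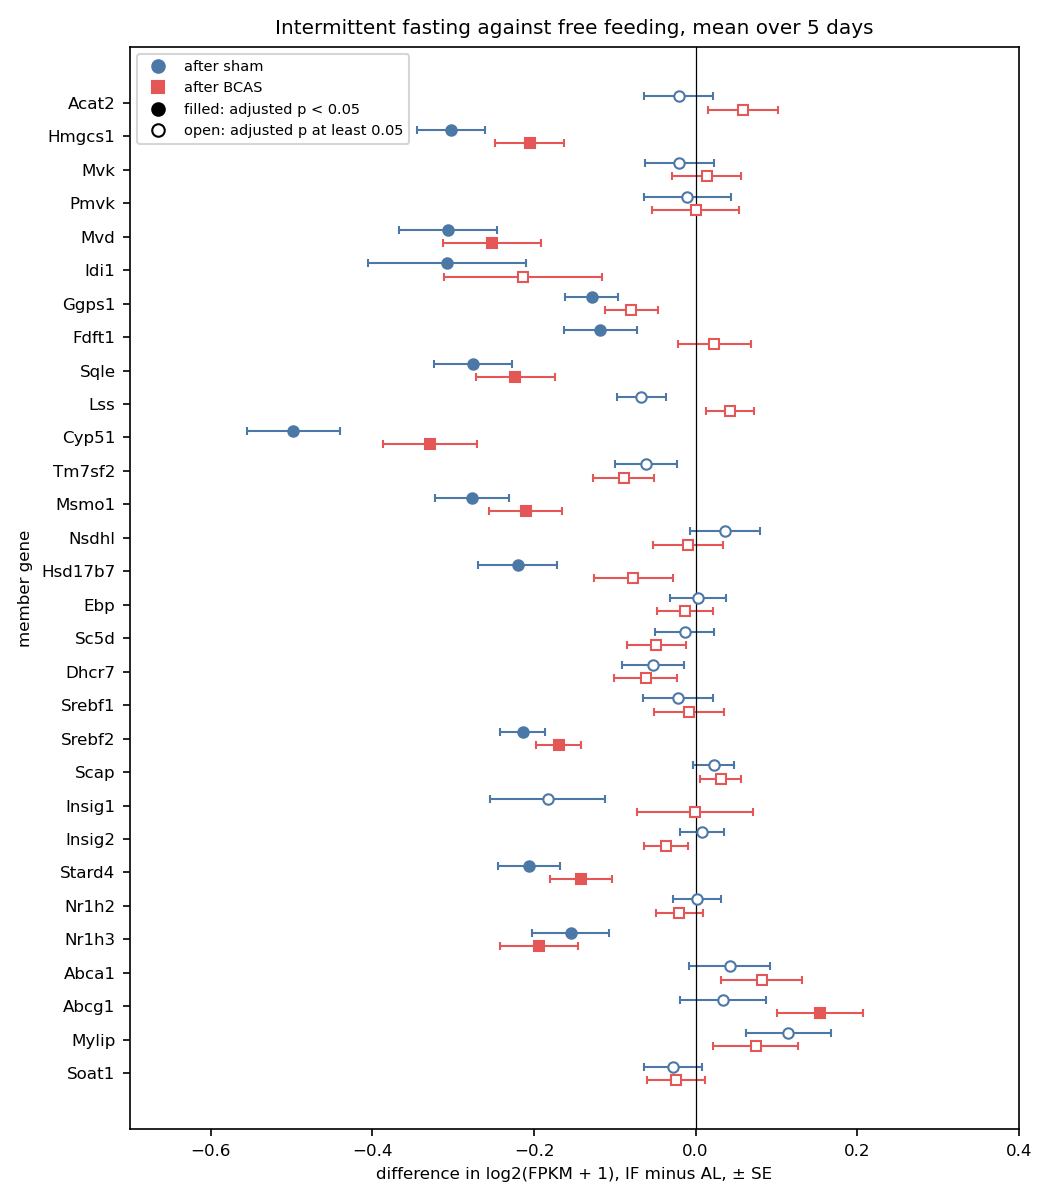
Difference in log2(FPKM + 1) between fasted and freely fed mice for the 30 tested members, with blue circles after sham and red squares after BCAS, bars of 1 SE and filled symbols for adjusted p below 0.05. Cyp51 stands farthest to the left, at -0.50 after sham and -0.33 after BCAS, and Abcg1 is the 1 filled symbol to the right of 0.

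After BCAS the diet comparison used other libraries, so it is a separate measurement of the same contrast, within 1 fit. Fasted mice again had lower Cyp51, Hmgcs1, Mvd, Sqle, Msmo1, Srebf2, Stard4 and Nr1h3, and higher Abcg1. All 8 lower members had a negative difference on each of the 5 days after sham and each of the 5 days after BCAS. That made 8 lower and 1 higher of 30 members, against 23.1% of all genes called and 11.9% called lower. The 8 lower members were all among the 12 that were lower after sham (100%), as were 65.8% of all genes lower after BCAS. They made up 66.7% of those 12, and the same share over all genes was 65.9%.

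Cyp51 ranged from 7.68 to 13.5 FPKM in BCAS AL (median 10.9) and from 5.37 to 11.5 FPKM in BCAS IF (median 8.28). The difference was -0.33 ± 0.058, or 1.26-fold lower (adjusted p = 1.14e-05, limma). Hmgcs1 had medians of 20.7 and 17.5 FPKM and differed by -0.21 ± 0.042 (adjusted p = 0.000157). Srebf2 had medians of 21.9 and 18.9 FPKM and differed by -0.17 ± 0.028 (adjusted p = 3.21e-06). In each of these the AL and IF ranges overlapped.

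Mvd differed by -0.25 ± 0.061 after BCAS (adjusted p = 0.00128, limma), Sqle by -0.22 ± 0.049 (adjusted p = 0.000348) and Msmo1 by -0.21 ± 0.046 (adjusted p = 0.000329). Stard4 differed by -0.14 ± 0.039 (adjusted p = 0.00425) and Nr1h3 by -0.19 ± 0.048 (adjusted p = 0.00166). Abcg1, a cholesterol exporter driven by liver X receptors, had medians of 1.69 FPKM in BCAS AL and 1.94 FPKM in BCAS IF and differed by 0.15 ± 0.053 (adjusted p = 0.0265). That call ended without any 1 of BCAS AL day 1 replicate 3 (adjusted p = 0.0829), BCAS AL day 21 replicate 2 (0.0556), BCAS IF day 7 replicate 2 (0.0516) or BCAS IF day 21 replicate 3 (0.0532), and without day 1 (0.102).

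The other 4 members that were lower after sham did not pass after BCAS. Idi1 differed by -0.21 ± 0.098, Hsd17b7 by -0.077 ± 0.049, Ggps1 by -0.079 ± 0.033 and Fdft1 by 0.023 ± 0.045. Insig1 differed by -0.00058 ± 0.072, and the remaining 16 members, which passed in neither comparison, by between -0.089 and 0.082. The difference between the surgeries was tested as the interaction of diet and BCAS, and no member passed (0.0127% of all genes passed, all members at adjusted p = 0.999, limma). At an unadjusted p under 0.05 there were 4 members, against 629 of all 15707 genes, and limma-voom called 0 members. The interaction of those 4 was 0.11 ± 0.042 for Lss, 0.14 ± 0.064 for Fdft1, 0.17 ± 0.082 for Cyp51 and 0.14 ± 0.070 for Hsd17b7, so a difference between the diet responses after sham and after BCAS was not shown.

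**Figure D2:**
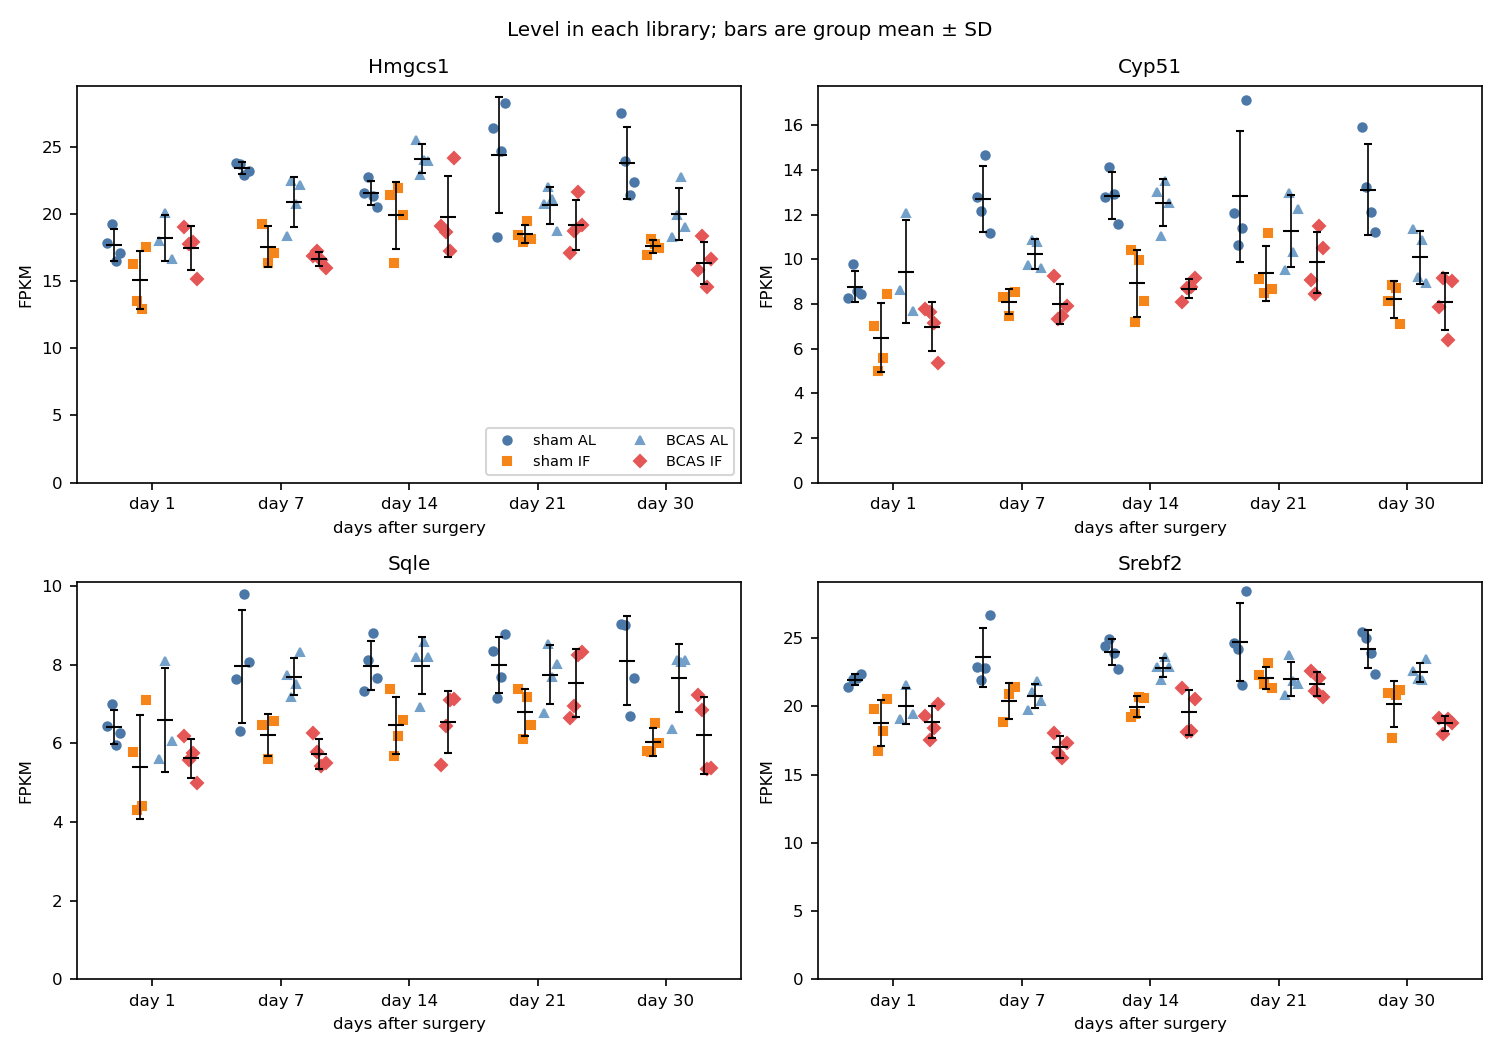
FPKM of Hmgcs1, Cyp51, Sqle and Srebf2 in each of the 78 libraries by day after surgery, on axes from 0, with group mean and SD in black. The orange squares (sham IF) lie mostly below the dark blue circles (sham AL), and on day 30 they do not overlap for any of these genes.

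On single days, with 3 or 4 libraries a group, 26 diet differences passed over the members, and 6 of these held when each library was left out in turn, of which 4 held in every alternative. The 6 were Cyp51 after sham on days 7 and 30, Srebf2 after sham on day 14, Hmgcs1 after sham on day 30, Srebf2 after BCAS on day 7 and Cyp51 after BCAS on day 14. With only the groups compared in the fit, Cyp51 after sham on day 7 (adjusted p = 0.278, limma) and Srebf2 after BCAS on day 7 (0.0676) ended. The other 20 ended without at least 1 library. After sham, 1 member passed on day 1 (3.67% of all genes), Srebf2 at -0.22. On day 7, 6 passed (9.05% of all genes): Cyp51 at -0.58, Hmgcs1 at -0.40, Stard4 at -0.35, Ggps1 at -0.25 and Srebf2 at -0.20 were lower and Ebp was higher at 0.27. Sham AL on day 7 holds 2 of the 3 libraries rich in short genes, and without those 3 libraries only Cyp51 passed on that day.

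On day 14 after sham, Cyp51 (-0.49) and Srebf2 (-0.25) passed, against 4.39% of all genes. On day 21 no member passed, against 0.382% of all genes. At an unadjusted p under 0.05 there were 5 members, against 1566 of all 15707 genes, and limma-voom called 1 member. Hmgcs1 was closest, at -0.36 ± 0.093 (adjusted p = 0.0536, limma). On day 30, 8 members were lower, against 4.82% of all genes: Cyp51 by -0.61 ± 0.127, Mvd by -0.43, Hmgcs1 by -0.41, Msmo1 by -0.37, Sqle by -0.37, Stard4 by -0.30, Srebf2 by -0.25 and Ggps1 by -0.23. Of these, 7 had no overlap between the 4 sham AL and the 4 sham IF libraries. Of all genes, 6.7% lay wholly below and 5.37% wholly above on that day. Mvd was the exception, with 6.85, 5.38, 6.88 and 4.39 FPKM in sham AL and 4.64, 3.88, 4.76 and 3.09 FPKM in sham IF.

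After BCAS, day 1 brought 2 calls (4.37% of all genes), both outside the synthesis enzymes. Nr1h3 was 12.7, 14.8 and 13.8 FPKM in BCAS AL and 10.2, 10.5, 10.2 and 10.8 FPKM in BCAS IF, and Mylip was 8.25, 6.35 and 5.62 FPKM against 9.07, 9.90, 9.33 and 9.13 FPKM. Neither pair of groups overlapped, but on that day 9.56% of all genes lay wholly below and 8.68% wholly above, against 2 and 1 of the 30 members. Both calls ended without the 3 libraries rich in short genes, of which BCAS AL day 1 holds 1. On day 7, Sqle (-0.37) and Srebf2 (-0.27) were lower (2.25% of all genes), on day 14 Cyp51 (-0.48), Msmo1 (-0.37) and Srebf2 (-0.22) (5.67%), and on day 30 Mvd (-0.49) and Srebf2 (-0.25) (1.35%). On day 21 no member passed (0.802%), and limma-voom called 0. At an unadjusted p under 0.05 there were 3 members, against 1954 of all 15707 genes. Srebf2 on that day differed by -0.025 ± 0.061.

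**Figure D3:**
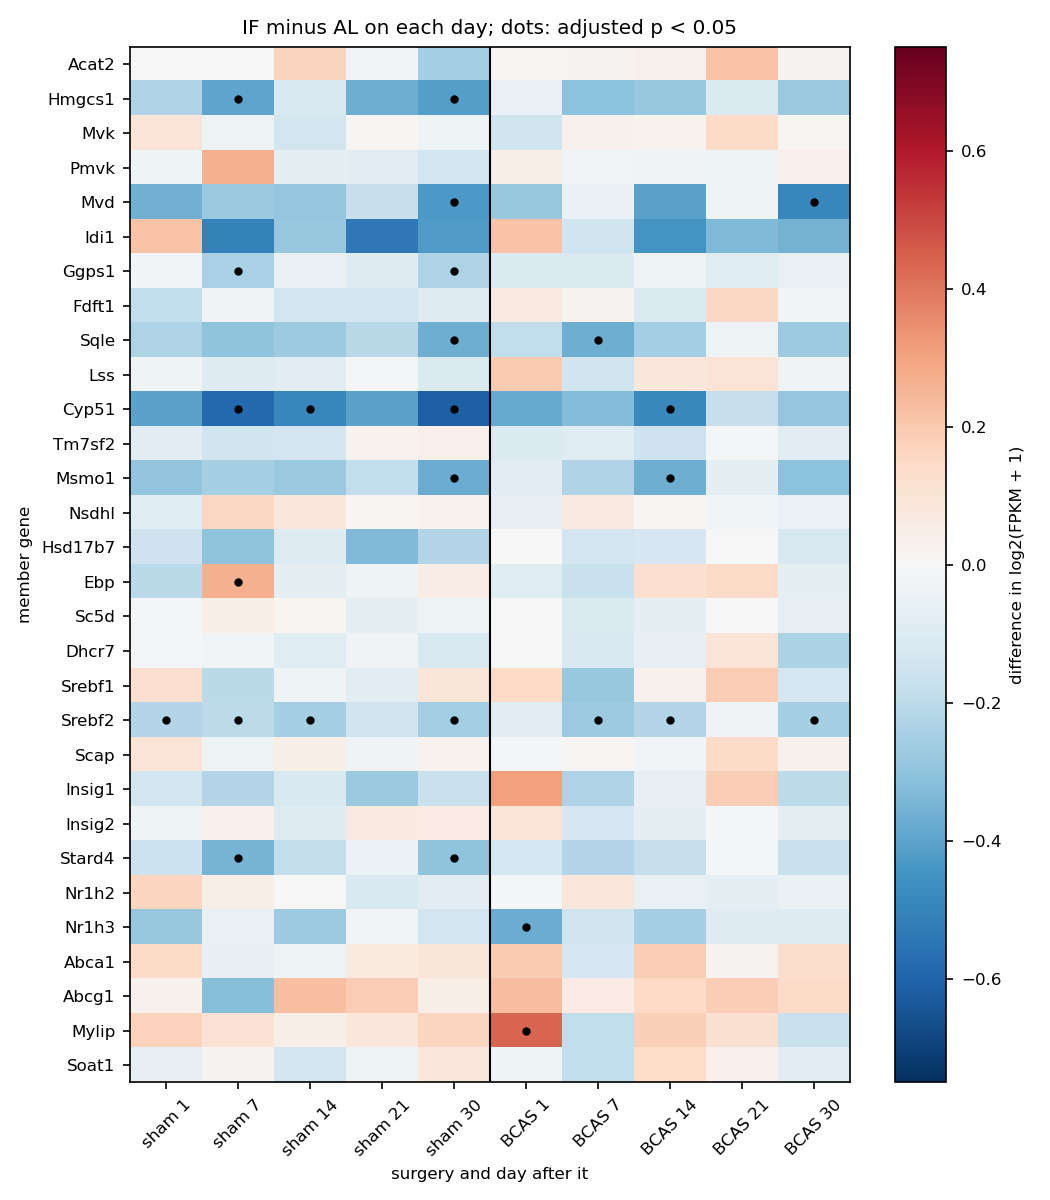
Difference in log2(FPKM + 1), fasted minus freely fed, for the 30 tested members (rows) on each day after sham (left 5 columns) and BCAS (right 5 columns), with blue for lower, red for higher and a dot for adjusted p below 0.05. Cyp51, Srebf2, Hmgcs1, Sqle and Msmo1 are blue in all 10 columns, and the columns of day 21 hold no dot.

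Whether the diet difference itself changed between days was tested with an F test, and no member passed after sham (0.00637% of all genes) or after BCAS (0.0255%). At an unadjusted p under 0.05 there were 3 and 5 members, against 2589 and 1228 of all 15707 genes, and limma-voom called 0 members in both. A difference between days with and without calls was therefore not shown. The mean log2(FPKM + 1) of the 18 tested enzymes in sham IF was 2.85 on day 1, 2.96 on day 7, 3.02 on day 14, 3.02 on day 21 and 2.96 on day 30, and in sham AL 2.97, 3.09, 3.15, 3.17 and 3.16.

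Levels themselves varied between days in some arms. In sham AL, Hmgcs1, Pmvk, Idi1, Cyp51, Ebp and Abcg1 passed the F test over days (17.3% of all genes passed). Cyp51 rose from a mean of 8.78 ± 0.687 FPKM on day 1 to 12.7 ± 1.47 on day 7 and 13.1 ± 2.04 on day 30 (SD, n = 4 each), and Hmgcs1 from 17.7 ± 1.21 to 23.4 ± 0.432 and 23.8 ± 2.69 (adjusted p = 0.00779 and 0.00349, limma). Without the 3 libraries rich in short genes, 3 of the 6 passed, and the calls of Pmvk, Ebp and Abcg1 ended. With only the sham AL groups in the fit, all 6 calls ended, Cyp51 at an adjusted p of 0.143 and Hmgcs1 at 0.149. In BCAS IF, Srebf2 and Tm7sf2 passed (5.23% of all genes), and Srebf2 lay at 18.9 ± 1.16 FPKM on day 1, 17.0 ± 0.824 on day 7 and 21.6 ± 0.892 on day 21. No member passed in sham IF (1.88%) or BCAS AL (4.48%), where limma-voom called 0. The unadjusted p was under 0.05 for 8 and 12 members, against 2762 and 2802 of all 15707 genes.

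The second question was whether BCAS changed the pathway. Averaged over the days, almost nothing in it passed. Under free feeding, Srebf2 was lower by -0.13 ± 0.028 (adjusted p = 0.00927, limma) and Lss by -0.11 ± 0.030 (adjusted p = 0.0481), 2 of 30 members against 0.987% of all genes. Marker sums of other cells were not tested between the same arms. The endothelial markers summed to 653 ± 78 FPKM in sham AL and 762 ± 95.3 FPKM in BCAS AL (SD). The red blood cell markers summed to 217.5 ± 218 and 397 ± 467 FPKM, with medians of 123.4 and 200.2. The part of these cells in the result was not tested. Under fasting no member passed, against 0.758% of all genes, and limma-voom called 0. At an unadjusted p under 0.05 there was 1 member, against 1518 of all 15707 genes. These comparisons share the sham AL and sham IF libraries with the diet comparison after sham, and the BCAS libraries with the diet comparison after BCAS.

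Srebf2 had medians of 23.4 FPKM in sham AL and 21.9 FPKM in BCAS AL, with overlapping ranges of 21.4 to 28.5 and 19.1 to 23.8, and its call ended without day 7 (adjusted p = 0.071). Lss, which closes the sterol rings, had medians of 1.94 and 1.69 FPKM, and its call ended when any of 25 of the 39 libraries was left out (adjusted p from 0.00837 to 0.139). Cyp51 differed by -0.15 ± 0.058 (adjusted p = 0.269) and Hmgcs1 by -0.084 ± 0.042 (adjusted p = 0.428). Under fasting, Cyp51 differed by 0.021 ± 0.058, Hmgcs1 by 0.013 ± 0.042 and Srebf2 by -0.080 ± 0.028 (adjusted p = 0.209).

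**Figure D4:**
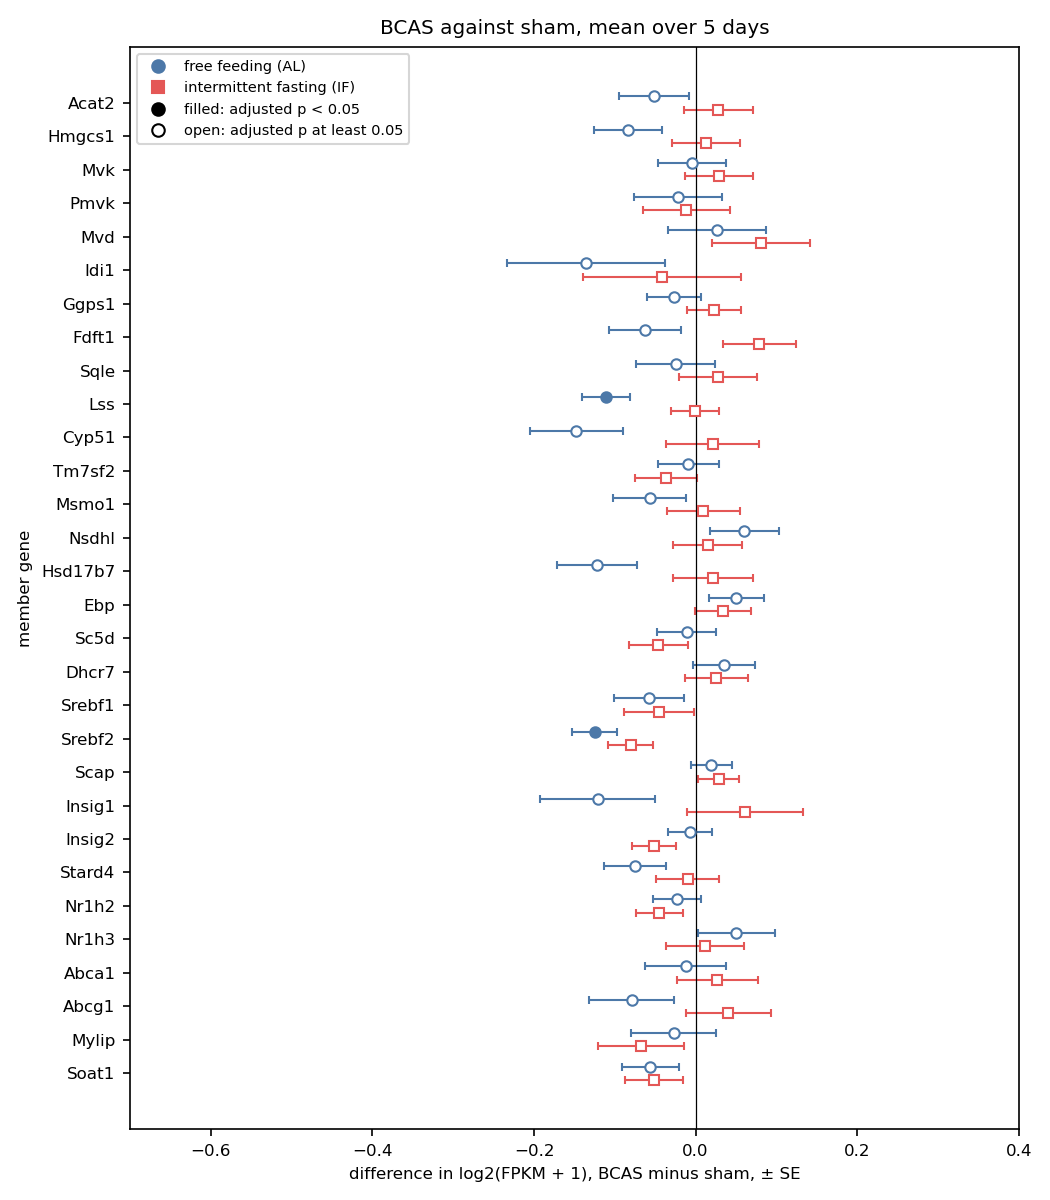
Difference in log2(FPKM + 1) between BCAS and sham for the 30 tested members, with blue circles under free feeding and red squares under fasting, bars of 1 SE and filled symbols for adjusted p below 0.05. Srebf2 and Lss under free feeding are the only filled symbols, and all values lie between -0.148 and 0.0807.

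By day, BCAS calls came only on day 7 under free feeding, where 2 members passed against 2.63% of all genes. Ebp was 21.6, 18.5, 21.0 and 17.2 FPKM in sham AL and 25.4, 27.4, 23.6 and 26.5 FPKM in BCAS AL, and differed by 0.38 ± 0.076 (adjusted p = 0.00336, limma). Abcg1 was 2.23, 2.70, 2.50 and 2.97 FPKM in sham AL and 1.69, 1.37, 1.72 and 1.64 FPKM in BCAS AL, and differed by -0.46 ± 0.117 (adjusted p = 0.024). Neither pair of groups overlapped, as for 2.32% of all genes wholly below and 2.42% wholly above. With only the groups compared in the fit, both calls ended (adjusted p = 0.571 and 0.492). The 2 lowest Ebp values and the 2 highest Abcg1 values were those of sham AL day 7 replicates 2 and 4, the libraries rich in short genes, and without the 3 such libraries the differences were 0.26 (adjusted p = 0.196) and -0.37 (adjusted p = 0.263). The Abcg1 call also ended without sham AL day 7 replicate 4 or BCAS AL day 7 replicates 2 or 4.

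Ebp was also the only member whose BCAS difference under free feeding varied between days (adjusted p = 0.00598 by limma's F test, 1.97% of all genes), and without those 3 libraries this too ended (adjusted p = 0.0813). Under fasting no member's BCAS difference varied between days (0% of all genes, 0 members by limma-voom). At an unadjusted p under 0.05 there were 2 members, against 794 of all 15707 genes. On the other days no member passed under free feeding (0.376% of all genes on day 1, 0.337% on day 14, 0% on day 21 and 0.357% on day 30) or under fasting (0.00637% on day 1, 0.153% on day 7, 0% on day 14, 0% on day 21 and 0.0891% on day 30). At an unadjusted p under 0.05 there were 0 to 6 members on those days, against 490 to 1829 of all 15707 genes, and limma-voom called 0 members on each.

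The third question was whether members varied together between libraries of the same group. The level of each gene was fitted on that of Hmgcs1 with group means removed, over 78 libraries. Msmo1 had a slope of 0.82 ± 0.095 log2 units per log2 unit of Hmgcs1 (adjusted p = 6.95e-08, limma), Cyp51 of 0.93 ± 0.133 (adjusted p = 1.97e-05) and Sqle of 0.66 ± 0.125 (adjusted p = 0.0064). These 3 of 29 members stood among 6 of 15706 genes that passed (0.0382%). Without the 2 libraries with the most extreme Hmgcs1 levels, Msmo1 (0.75) and Cyp51 (0.87) still passed and Sqle did not (0.64, adjusted p = 0.051).

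Insig1 (0.84 ± 0.194, adjusted p = 0.0718) and Fdft1 (0.53 ± 0.122, adjusted p = 0.0697) fell just outside the threshold. Srebf2, the regulator, had a slope of 0.16 ± 0.084 (adjusted p = 0.564), and Nr1h2 and Nr1h3 had negative slopes of -0.20 and -0.24 that did not pass. The genes shared library and depth, and FPKM values within a library are scaled together.

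**Figure D5:**
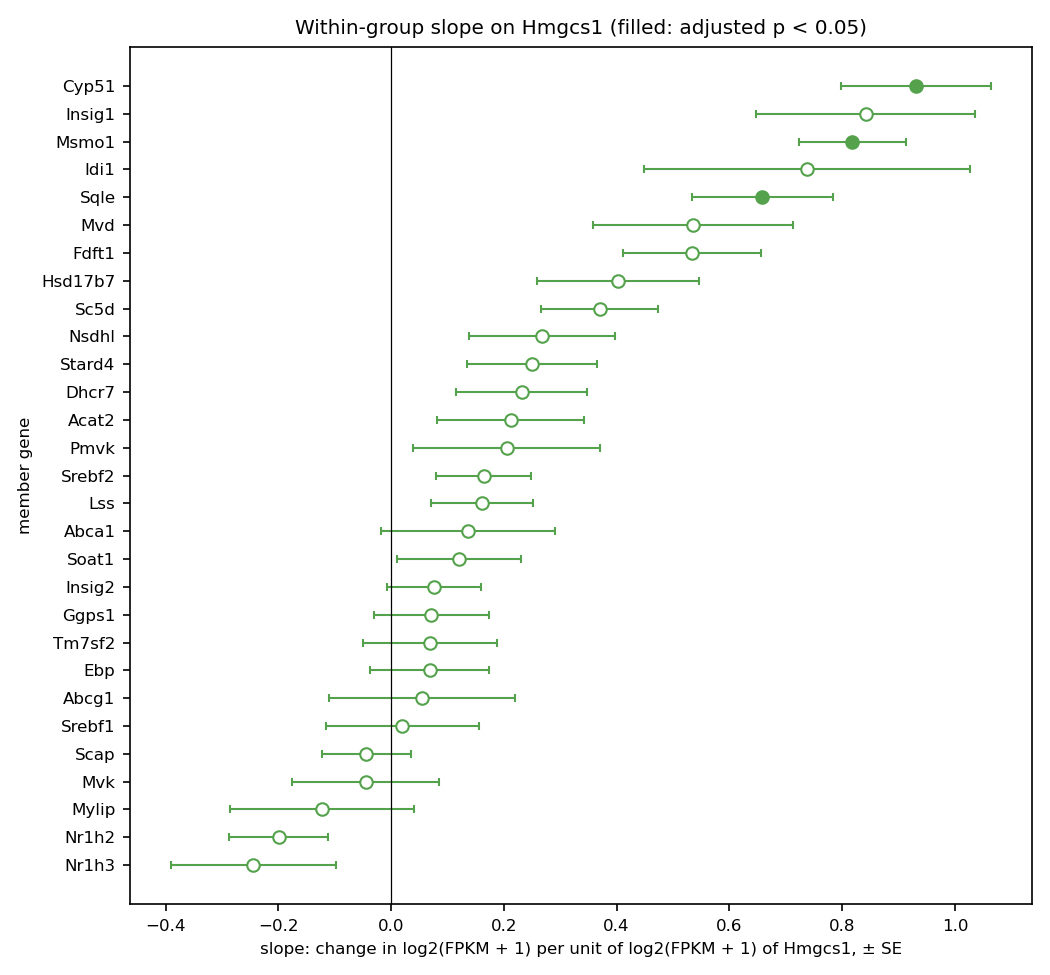
Slope of each member on Hmgcs1 within groups, in log2(FPKM + 1) per unit of log2(FPKM + 1) of Hmgcs1, with bars of 1 SE and filled symbols for adjusted p below 0.05. Cyp51, Msmo1 and Sqle are filled, at 0.93, 0.82 and 0.66. Among the genes of sterol sensing, all open, Scap, Srebf1 and Insig2 lie near 0, Srebf2 at 0.16 and Insig1 at 0.84.

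Related genes were read from 4 lists, to be set against the 23.7% of all genes called with fasting after sham (11.9% lower) and the 23.1% called after BCAS (11.9% lower). The lists too were chosen with earlier results of these data known, so their counts are descriptions. Of 16 tested genes of fatty acid synthesis, 4 were lower and 1 higher with fasting after sham (median -0.059), with Fasn, the fatty acid synthase, at -0.18 ± 0.031, Elovl6 at -0.20 ± 0.046 and Acly, which supplies cytosolic acetyl-CoA, at -0.16 ± 0.045 (adjusted p = 6.73e-06, 0.000585 and 0.00577, limma). The desaturase Fads1 was the 1 higher, at 0.11 ± 0.034. After BCAS, 2 were lower and 2 higher, a share near that of all genes, with Fasn at -0.099 ± 0.031 and Acacb at 0.16 ± 0.042.

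Of 13 tested genes of SREBP processing and sterol-linked degradation, 5 were lower and none higher after sham (11.9% of all genes were lower), and 5 were lower and 2 higher after BCAS (23.1% of all genes called). Sec23a, a coat protein of the vesicles that carry SCAP and SREBP out of the endoplasmic reticulum, was at -0.23 ± 0.036 after sham and -0.22 ± 0.036 after BCAS (adjusted p = 1.57e-06 and 2.42e-06, limma). Ube2g2, a ubiquitin-conjugating enzyme, was at -0.19 and -0.21, and Erlin1 at -0.19 and -0.20.

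Of 27 tested genes of sterol trafficking and oxysterols, 4 were higher and 2 lower after sham, and 5 higher and 1 lower after BCAS, in both a share near that of all genes (23.7% and 23.1%). Cyp27a1, which makes 27-hydroxycholesterol, was higher at 0.29 ± 0.044 after sham and 0.34 ± 0.044 after BCAS (adjusted p = 9.88e-07 and 1.88e-08, limma). The lysosomal cholesterol carrier Npc2 was higher at 0.12 and 0.11, and the oxysterol hydroxylase Cyp7b1 at 0.22 and 0.20. Of 14 isoprenoid-using genes, 5 were lower and 1 higher after sham (23.7% of all genes called) and 4 lower after BCAS (23.1%), with Nus1, a subunit of the dolichol-making enzyme, at -0.18 and -0.23 and Rabggtb, of Rab geranylgeranylation, at -0.15 and -0.21.

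Clock genes differed with fasting in the same libraries. Of 16, 11 were higher and 4 lower after sham (median 0.59, with 23.7% of all genes called). After BCAS, 12 were higher and 4 lower (median 0.49, with 23.1% of all genes called). Dbp, a clock output gene, averaged 5.18 to 24.1 FPKM in the 5 sham AL groups and 29.2 to 46.3 FPKM in the 5 sham IF groups, with no overlap of group means. After BCAS the group means were 4.67 to 12.1 FPKM in AL and 27.7 to 42.2 FPKM in IF. Dbp differed by 1.89 ± 0.118 after sham (adjusted p = 4.04e-20, limma). The part of clock phase in the diet differences of the sterol genes was not tested.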

How the data were processed

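Libraries were made by Novogene, each starting from 2 ug of RNeasy-extracted total RNA, per the labels' protocols. The authors deposited FPKM values and gene lengths for 54532 genes, per the file headers. The submitters' processing notes name DESeq 1.10.1 but give it no role, and the aligner, counter and build are not given in the sources used here. Gene coordinates matched GRCm38: 98.3% of the 54495 IDs shared with GENCODE release 21 had the same ones. FPKM times length came in whole steps (100% within 0.05 below 1000 fragments), which gave each library's depth. The 15707 genes that reached 1 FPKM in 3 or more libraries were tested on log2(FPKM + 1) with limma 3.58.1 (trend, robust; R 4.3.3) on 20 group means, with Benjamini-Hochberg adjustment. No libraries held identical values. Every member was accounted for, with values for those past the threshold and for the regulators, and up to 4 genes of each related list by smallest p. The members and lists were chosen with earlier results of these data known. Simulated data held 15707 genes with independent normal noise, 200 of them changed, by 0.25 or 0.5. For the diet comparison after sham averaged over days, 71% of changes of 0.25 and 92% of changes of 0.5 were recovered. On day 30 these were 11% and 51%. For BCAS under AL averaged over days they were 61% and 96%. False calls were 9, 5 and 7 in that order. The real diet comparison after sham called 3719 genes, so its adjustment was less strict than in the simulation. Near-identical copies were sought with BLAST+ 2.17.0 over at least 300 bases at 90% identity.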

Additional observations from a re-analysis of the deposited data

Results flagged for a closer look

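Single libraries stood far from the other 3 of their group, by the gap to the nearest one, in 7 of 180 groups of 4 examined for 8 members, the enzyme mean and the brain tissue score; chance gives about 1 in 20. The members were Mvd in BCAS AL day 7 replicate 4 (5.505 FPKM, the others 4.516 to 4.683), Sqle in BCAS AL day 30 replicate 1 (6.362 FPKM, the others 8.063 to 8.131), Msmo1 in BCAS AL day 21 replicate 2 (11.97 FPKM, the others 9.954 to 9.995) and Srebf2 in sham IF day 30 replicate 2 (17.69 FPKM, the others 20.85 to 21.18). The brain tissue score was 0.644 in sham AL day 1 replicate 2, 2.075 in sham IF day 14 replicate 1 and -0.8167 in sham IF day 30 replicate 1. The BCAS difference of Ebp under free feeding differed between days (adjusted p = 0.00598, limma's F test). It held without each of 39 libraries in turn (adjusted p up to 0.0183) and ended without the 3 libraries rich in short genes together (0.0813).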

How the results depend on the processing

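No paired analysis was possible because the labels share no replicate numbers between groups. The diet counts averaged over days stayed at 10 to 13 members after sham and 8 to 10 after BCAS in every alternative run, and no difference that passed reversed its direction. Differences that did not pass, and single genes of the related lists, were not recomputed. The alternatives without day 1 or day 7 were chosen after seeing the data. Calls averaged over days also ended for Fdft1 with no filter (adjusted p = 0.102, limma), with only the groups compared (0.0656) and without day 1 (0.141), for Abcg1 with no filter (0.0588), for Idi1 with limma-voom (0.0533), and for Lss in 6 settings, with adjusted p from 0.0541 to 0.165.

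For BCAS against sham under AL, the count of 2 became 1 with no filter, with only the groups compared, with limma-voom, with the brain tissue score as covariate and without day 1, 0 without day 7, and 1 to 2 without single libraries. With no filter, day counts for the diet became 0 and 5 (sham days 1 and 30) and 0, 1 and 1 (BCAS days 1, 7 and 30). With only the groups compared they became 0, 0, 1 and 3 (sham days 1, 7, 14 and 30) and 1, 1 and 1 (BCAS days 1, 7 and 30), the BCAS day 7 count under AL 0 and the sham AL level count 0. With limma-voom they became 0, 1 and 4 (sham days 1, 21 and 30) and 1 (BCAS day 7), and the BCAS IF level count 0. A pseudocount of 0.1 gave 1 on BCAS day 30, size factors 1 on BCAS day 7, and the brain tissue covariate 1 on BCAS day 1 and 1 for BCAS under AL on day 7. Without the 3 libraries rich in short genes, the diet counts became 2 and 1 (sham days 1 and 7) and 1 (BCAS day 1), BCAS under AL 0 and 1 (days 7 and 14), its F test 0, the level counts 3 (sham AL), 1 (sham IF) and 3 (BCAS AL), and the Hmgcs1 association 5, as it was with the slope on Sqle (5).

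Leaving out 1 library gave, for the diet, 0 to 4, 1 to 9, 1 to 2, 0 to 1 and 3 to 8 on the sham days 1, 7, 14, 21 and 30, 0 to 2, 1 to 2, 1 to 4 and 0 to 1 on the BCAS days 1, 7, 14 and 30, and 0 to 1 for the change of the sham diet difference between days. It gave 1 to 4 for BCAS under AL on day 7, 0 to 1 on day 14, 1 to 2 for its F test, 0 to 3, 0 to 3 and 1 to 3 for levels in sham IF, BCAS AL and BCAS IF, and 3 to 5 for the Hmgcs1 association. Low genes such as Idi1, at a median of 76 fragments a library, were measured less precisely than Srebf2, at 2956.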
